A study of Rattus norvegicus with 56 samples.

Results

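Potassium channel genes of the rat dorsal striatum were followed through a lesion of the nigral dopamine neurons, L-dopa and pramipexole. They were taken as the genes whose symbol starts with Kcn, Kcne2 left out, that had a probe set assigned to that gene alone and a mean log2 signal over 56 arrays above 5. Of 74 such genes on the array, 41 passed, and each is given by its brightest probe set. The 41 comprised 19 of 31 voltage-gated (Kv) pore genes, 7 of 10 Kv auxiliary genes, 8 of 15 inward rectifiers (Kir), 4 of 11 K2P leak channels, 2 of 6 calcium-activated genes and the sodium-activated channel Kcnt1. Kcnk13 (5.10) and Kcnj8 (5.16) lay just inside the level, and Kcns2 (4.99), Kcnn1 (4.93) and Kcnab3 (4.83) just outside. Other known members of the family on the array lay lower and are not described, among them Kcnj10 (3.26) and Kcnj2 (3.13).

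The study asked how conditioned preference for pramipexole, a D2/D3 dopamine receptor agonist, relates to transcription after nigral loss and L-dopa. All rats were male Crl:OFA (Sprague Dawley), and all had received an AAV vector. In lesioned rats it carried alpha-synuclein and caused bilateral nigral loss, and in sham rats the same vector carried GFP. From 5 weeks after surgery the rats received L-dopa methyl-ester (50 mg/kg daily, with benserazide) or saline for 3 weeks, and then place conditioning with pramipexole (2 mg/kg, 40 min sessions) or with saline alone. These 3 factors gave 8 groups of 7 rats, and the brains were sampled 24 or 48 hours after the closing injection of the conditioning. The promoter of the vector and the number of neurons lost are not given in the sources used here, and the dopamine neuron transcripts Th (mean log2 signal 4.11) and Slc6a3 (4.28) lay below the level tested. The striatal markers Drd1 (10.79), Drd2 (9.66) and Penk (12.20) lay well above it.

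Signals are log2 array signals, on which a difference of 1 is a factor of 2. Levels of different genes are not compared, since each probe set has its own brightness. Whole tissue was measured, so fewer cells of a type and less RNA per cell cannot be told apart. Rats 38 to 56, all of them sham, form a second set of arrays, a boundary seen in the signals of other genes and not given by the labels. No potassium channel gene separated the sets (15 of all 18578 probe sets did), and none differed by over 0.2 between them, against 4.29% of all probe sets. With so few genes, these counts do not show the family to be free of the set difference. The median size of that difference was 0.0566 over the potassium channel genes and 0.0495 over all tested probe sets. Of the 41 genes, 30 were lower in the first set. Drug effects were therefore read inside a set: in lesioned rats (rats 1 to 28) and in sham rats (rats 38 to 56).

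Potassium channels let potassium leave the cell and so hold or restore the negative resting voltage. Medium spiny neurons, the main neurons of the striatum, rest at a very negative voltage set by inward rectifiers, and A-type Kv channels delay their firing; dopamine receptors act on both through protein kinase A. Kv auxiliary proteins set the number and inactivation of Kv channels, K2P channels carry background leak, and calcium-activated channels repolarize after a spike.

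Over the 8 groups the potassium channel genes differed by small amounts, at the median slightly more than all tested probe sets. The range of the 8 group means was between 0.08 (Kcne4) and 0.53 (Kcnc4), with a median of 0.24 (0.21 over all tested probe sets). The median SD within groups was 0.20 (0.18 over all).

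**Figure D1:**
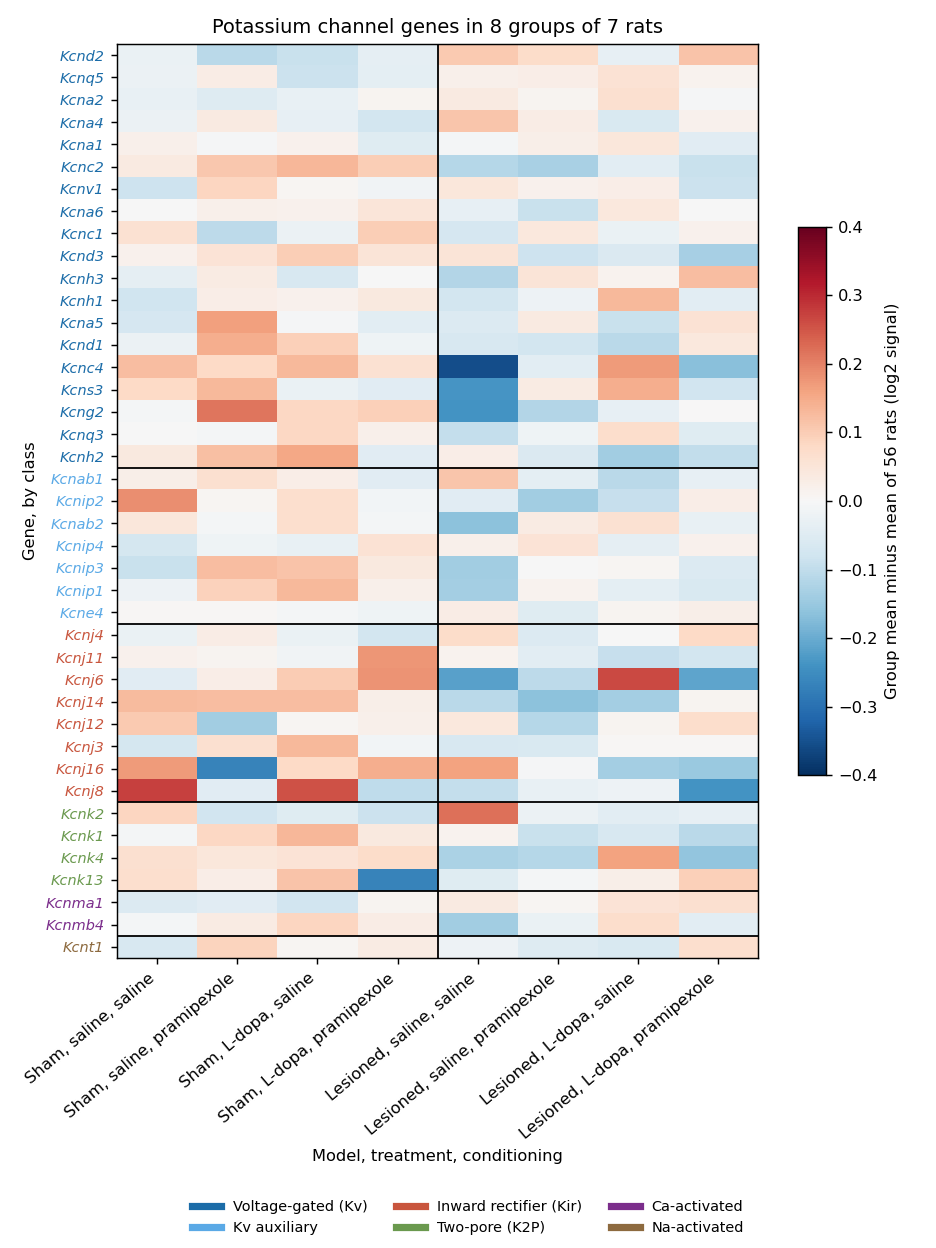
Mean log2 signal of each of 41 potassium channel genes (rows, by class) in each of 8 groups of 7 rats (columns), as the difference from that gene's mean over 56 rats. Most cells are pale; the darkest is Kcnc4 in lesioned rats given saline and saline, the group with its lowest mean (5.88).

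Among Kv pore genes, Kcnd2, a main A-type gene of spiny neurons, had group means between 10.22 and 10.44 and single rats between 9.92 and 10.66. Kcna4, which also gives an A-type current, had group means between 9.52 and 9.71 and single rats between 9.19 and 10.02. Group means of the other A-type genes ran from 7.80 to 8.03 for Kcnd3 and from 6.55 to 6.80 for Kcnd1. The delayed rectifier gene Kcna1, found on axons, had the smallest SD within groups of all members, 0.09, with group means between 8.92 and 9.02. Its relatives Kcna2 (9.82 to 9.94), Kcna6 (8.38 to 8.51) and Kcna5 (6.92 to 7.17) each kept their group means within a span of 0.26. The M-current gene Kcnq5 had group means of 9.82 to 9.96 and Kcnq3 of 5.41 to 5.59.

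Among the fast-firing channel genes, single rats spanned 8.06 to 9.52 for Kcnc2, 5.32 to 6.71 for Kcnc4 and 7.90 to 8.73 for Kcnc1. The ether-a-go-go family genes Kcnh1, Kcnh2 and Kcnh3 had group means of 7.10 to 7.31, 5.16 to 5.46 and 7.12 to 7.36. The modulatory subunits form no channel by themselves. Of these, Kcns3 had the largest SD within groups of all members, 0.49, with single rats from 4.87 to 6.83, whereas Kcnv1 (8.84 to 9.02) and Kcng2 (5.43 to 5.88) are given by their group means.

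Among auxiliary genes, Kcnab1 and Kcnab2, the beta subunits of Kv channels, had group means of 11.44 to 11.66 and 8.65 to 8.88. The Kcnd-binding proteins Kcnip1, Kcnip2, Kcnip3 and Kcnip4 had group means of 6.34 to 6.61, 8.73 to 9.05, 7.84 to 8.10 and 8.50 to 8.63. Kcne4, an inhibitory subunit, had the smallest range of group means, 5.47 to 5.55.

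Among inward rectifiers, Kcnj4, a gene of medium spiny neurons, had group means of 7.73 to 7.89. Kcnj12, of the same strongly rectifying kind, had 5.49 to 5.74 and Kcnj14 6.50 to 6.80. The G protein-gated subunits differed in spread: Kcnj6 spanned 5.71 to 7.67 over single rats and Kcnj3 4.90 to 6.28. The KATP pore genes Kcnj11 and Kcnj8 had group means of 6.97 to 7.24 and 4.92 to 5.44. Kcnj16, a glial subunit, had 5.22 to 5.66.

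Among K2P genes, Kcnk2, a leak channel opened by stretch and fatty acids, had group means of 9.55 to 9.86, and Kcnk4, of the same kind, 5.17 to 5.49. Kcnk1 had 6.84 to 7.08 and Kcnk13 4.83 to 5.21. Kcnma1, the pore of the large-conductance calcium-activated channel, had group means of 8.74 to 8.88 and its beta subunit gene Kcnmb4 of 8.30 to 8.53. The sodium-activated Kcnt1 had 7.86 to 8.01.

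L-dopa changed no potassium channel gene past the threshold in lesioned rats. With both conditionings together (14 against 14 rats), limma called 0 of 41 members at a Benjamini-Hochberg adjusted p under 0.05, where 0.00538% of all probe sets were called, and 2 at an unadjusted p under 0.05, where 10.3% of all were. In saline-conditioned lesioned rats (7 against 7), 0 members were called (0.0161% of all) and 6 had an unadjusted p under 0.05, 4 higher and 2 lower, against 12.8% of all probe sets. No member's groups were without overlap in either comparison (0% and 0.312% of all probe sets). Over both conditionings the 2 higher and 2 lower members of smallest p were Kcnc4 (0.20 ± 0.09, with 10 of 14 L-dopa rats above the mean of their matched saline group), Kcnk2 (-0.14 ± 0.06, lower in 11 of 14), Kcnj16 (-0.22 ± 0.12, lower in 11 of 14) and Kcna6, an axonal delayed rectifier (0.08 ± 0.05, higher in 11 of 14), with limma adjusted p-values from 0.444 to 0.578. In this comparison 9 of 10 markers of cerebral cortex, the tissue next to the striatum, were higher, with a median of 0.18 and none called. With the cortex mean as a covariate, an alternative chosen after the values were seen, Kcnc4 differed by 0.11 ± 0.07 and Kcnk2 by -0.09 ± 0.06, both at an unadjusted limma p above 0.05. The 3′ to 5′ gap of control transcripts, a reading of RNA integrity, had means of 0.88 and 0.89 in the L-dopa groups and 0.80 and 0.81 in the saline groups, and with it as a covariate Kcnc4 differed by 0.17 ± 0.09 and Kcnk2 by -0.12 ± 0.07.

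Kcnc4, a fast-inactivating channel of the family that supports rapid firing, showed the smallest p. In saline-conditioned lesioned rats it had a lowest, median and highest signal of 5.32, 6.00 and 6.31 after saline, and 6.21, 6.35 and 6.59 after L-dopa. The ranges met only at their ends, and all 7 L-dopa rats lay above the mean of the saline rats. The difference was 0.53 ± 0.13 (SE; 95% interval 0.27 to 0.79), with a limma adjusted p of 0.125. The saline group had the lowest mean of the 8 groups, 5.88. The other lesioned groups of the same array set had means of 6.07 with both drugs and 6.20 with pramipexole alone. Sham rats given saline and saline had 6.09, 6.38 and 6.71. They are all in the second array set, so lesion and set cannot be told apart there. Without rat 22 the difference was 0.58 with a limma adjusted p of 0.0439, so that 1 rat decided the call; over all probe sets the calls went from 3 to 57 without it.

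Kcnk2 went the other way in the same rats. Its lowest, median and highest signals were 9.53, 9.95 and 10.11 after saline and 9.41, 9.62 and 9.75 after L-dopa. The groups overlapped, and all 7 L-dopa rats lay below the mean of the saline rats; the difference was -0.26 ± 0.09 (SE), with a limma adjusted p of 0.225. The other genes at an unadjusted p under 0.05 were Kcnab2 (0.23 ± 0.09), Kcnh1, an ether-a-go-go channel (0.20 ± 0.08), Kcnab1 (-0.22 ± 0.09) and Kcnmb4 (0.21 ± 0.10), with limma adjusted p-values from 0.255 to 0.340.

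Markers of neighbouring tissue also differed in this comparison, none of them past the adjusted threshold. Of 13 cerebral cortex markers in the list, 10 passed the level of 5 in this tissue. Of these, such as the glutamate transporter gene Slc17a7, 9 were higher after L-dopa, with a median difference of 0.47, and 5 had an unadjusted limma p under 0.05; all 13 medium spiny neuron markers were lower, with a median of -0.11. The mean of the cortex list ran from 7.31 to 9.21 in the saline rats and from 8.21 to 9.12 in the L-dopa rats. Rats 27 and 28, which had the lowest Kcnc4 signals (5.42 and 5.32), had cortex means of 7.63 and 7.31. With the cortex mean as a covariate, the Kcnc4 difference was 0.34 ± 0.10 (limma adjusted p = 0.266), that of Kcnk2 -0.16 ± 0.08, that of Kcnab2 0.12 ± 0.08, that of Kcnab1 -0.11 ± 0.08, that of Kcnmb4 0.04 ± 0.05 and that of Kcnh1 0.08 ± 0.06. None of these 5 other members had an unadjusted limma p under 0.05 with the covariate.

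**Figure D2:**
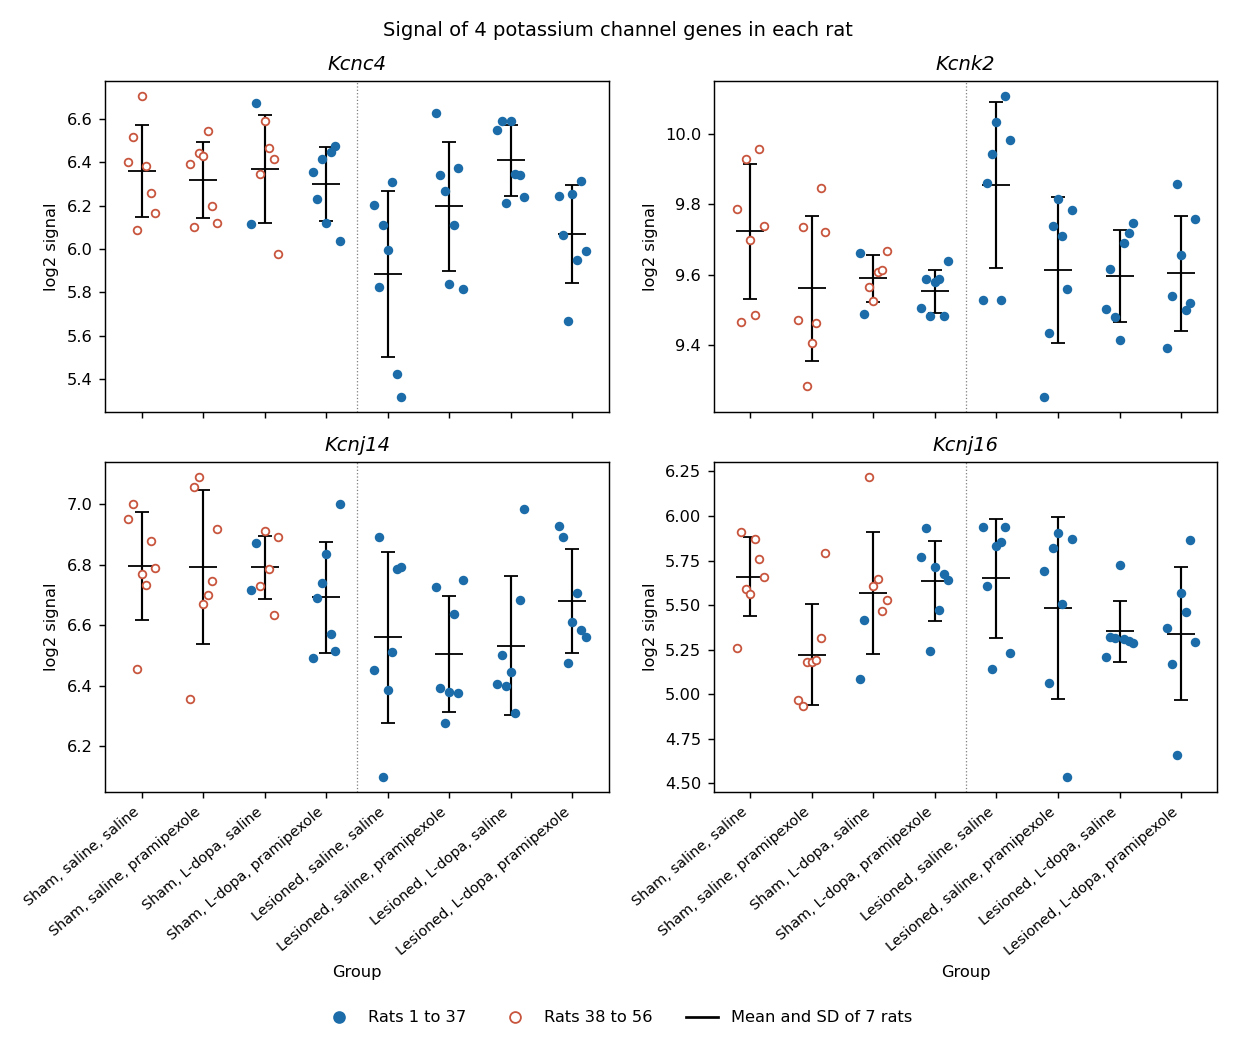
Log2 signal of Kcnc4, Kcnk2, Kcnj14 and Kcnj16 in each rat (points), with the mean and SD of each group of 7 (black); filled points are rats 1 to 37 and open points rats 38 to 56. Kcnc4 is lowest, and Kcnk2 highest, in lesioned rats given saline and saline (means 5.88 and 9.86), and the groups overlap in every panel.

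In sham rats, L-dopa could be read inside the second array set in 5 rats against 7. No member was called (0% of all probe sets) and 1 of 41 had an unadjusted p under 0.05, against 6.63% of all. That one was Kcnk1, a weak leak channel, at 7.18 against 6.94, a difference of 0.24 ± 0.12 with a limma adjusted p of 0.746; all 5 L-dopa rats lay above the mean of the saline rats. Without the array set in the fit the Kcnk1 difference was 0.14. Kcnk2 differed by -0.13 ± 0.10, with all 5 rats below the saline mean, Kcnd1, an A-type channel gene, by 0.16 ± 0.10 and Kcnd2 by -0.10 ± 0.11. No member's groups were without overlap (0.371% of all probe sets).

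Pramipexole conditioning changed no potassium channel gene past the threshold either. In lesioned rats over both treatments, limma called 0 of 41 members, each by its brightest probe set (0% of all probe sets). Of these members, 0 had an unadjusted p under 0.05 (6.38% of all). The smallest p-values were those of Kcnh3, an ether-a-go-go-like channel of forebrain neurons (0.14 ± 0.07, higher in 10 of 14 rats), Kcnk2 (-0.12 ± 0.06, lower in 11), Kcnd3 (-0.10 ± 0.07, lower in 11) and Kcna5 (0.12 ± 0.09, higher in 11). In lesioned rats without L-dopa, 0 were called (0% of all) and 3 had an unadjusted p under 0.05 (7.09% of all), and no member's groups were without overlap (0.0592% of all). Kcnk2 had a lowest, median and highest signal of 9.53, 9.95 and 10.11 after saline conditioning and of 9.25, 9.71 and 9.82 after pramipexole. All 7 pramipexole rats lay below the mean of the saline rats, with overlap; the difference was -0.24 ± 0.09 (limma adjusted p = 0.624). Kcnc4 differed by 0.31 ± 0.13 and Kcnab2 by 0.20 ± 0.09. This contrast shares its saline controls with the L-dopa contrast above, and the same low or high saline rats enter both. Kcnab1 differed by -0.15 ± 0.09. All 10 cortex markers were higher there too, with a median of 0.28. With the cortex mean as a covariate the differences were -0.19 ± 0.08 for Kcnk2, 0.21 ± 0.10 for Kcnc4 and 0.14 ± 0.07 for Kcnab2. Their unadjusted limma p-values were 0.0220, 0.0320 and 0.0590.

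In sham rats, pramipexole gave 0 called members (0% of all) and 2 at an unadjusted p under 0.05 (6.32% of all), both inward rectifiers. No member's groups were without overlap (0.0861% of all). Of 15 further probe sets of the members, 5 had the sign of the brightest here. Kcnj16, a subunit of glial channels, had 5.26, 5.66 and 5.91 (lowest, median, highest) after saline and 4.93, 5.18 and 5.79 after pramipexole. The groups overlapped, with 6 of 7 pramipexole rats below the saline mean; the difference was -0.44 ± 0.17, with a limma adjusted p of 0.685. Kcnj8, the pore of the KATP channel of pericytes and vascular muscle, had 4.89, 5.54 and 6.25 after saline and 4.74, 5.14 and 5.34 after pramipexole. All 7 pramipexole rats lay below the saline mean, and the difference was -0.32 ± 0.16 (limma adjusted p = 0.790). Without rat 54, a saline rat, it was -0.18. The 3′ to 5′ gap had means of 0.93 after pramipexole and 1.01 after saline in these sham rats. With it as a covariate, 1 member and not 2 had an unadjusted limma p under 0.05. The count was also 1 with no filter, with an intensity trend and with no array set in the fit. It was 0 of 29 with the 60th percentile filter, 3 with array weights and 4 with the cortex covariate. It stayed at 2 with quantile normalization, the compared groups alone, 16 added to the signal and the mean of a gene's probe sets. Abcc9, which encodes the partner subunit of Kcnj8 and lies next to it in the genome, differed by -0.27 ± 0.10 (limma adjusted p = 0.681). Of the cell markers, 0 of 10 astrocyte genes and 2 of 11 endothelial and mural genes were higher after pramipexole, with medians of -0.08 and -0.04, and their part in these values was not tested. Next were Kcnd1 (0.17 ± 0.09) and Kcna5 (0.23 ± 0.12, higher in 7 of 7 rats). In lesioned rats without L-dopa, Kcnj16 differed by -0.17 ± 0.17 and Kcnj8 by 0.06 ± 0.16.

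**Figure D3:**
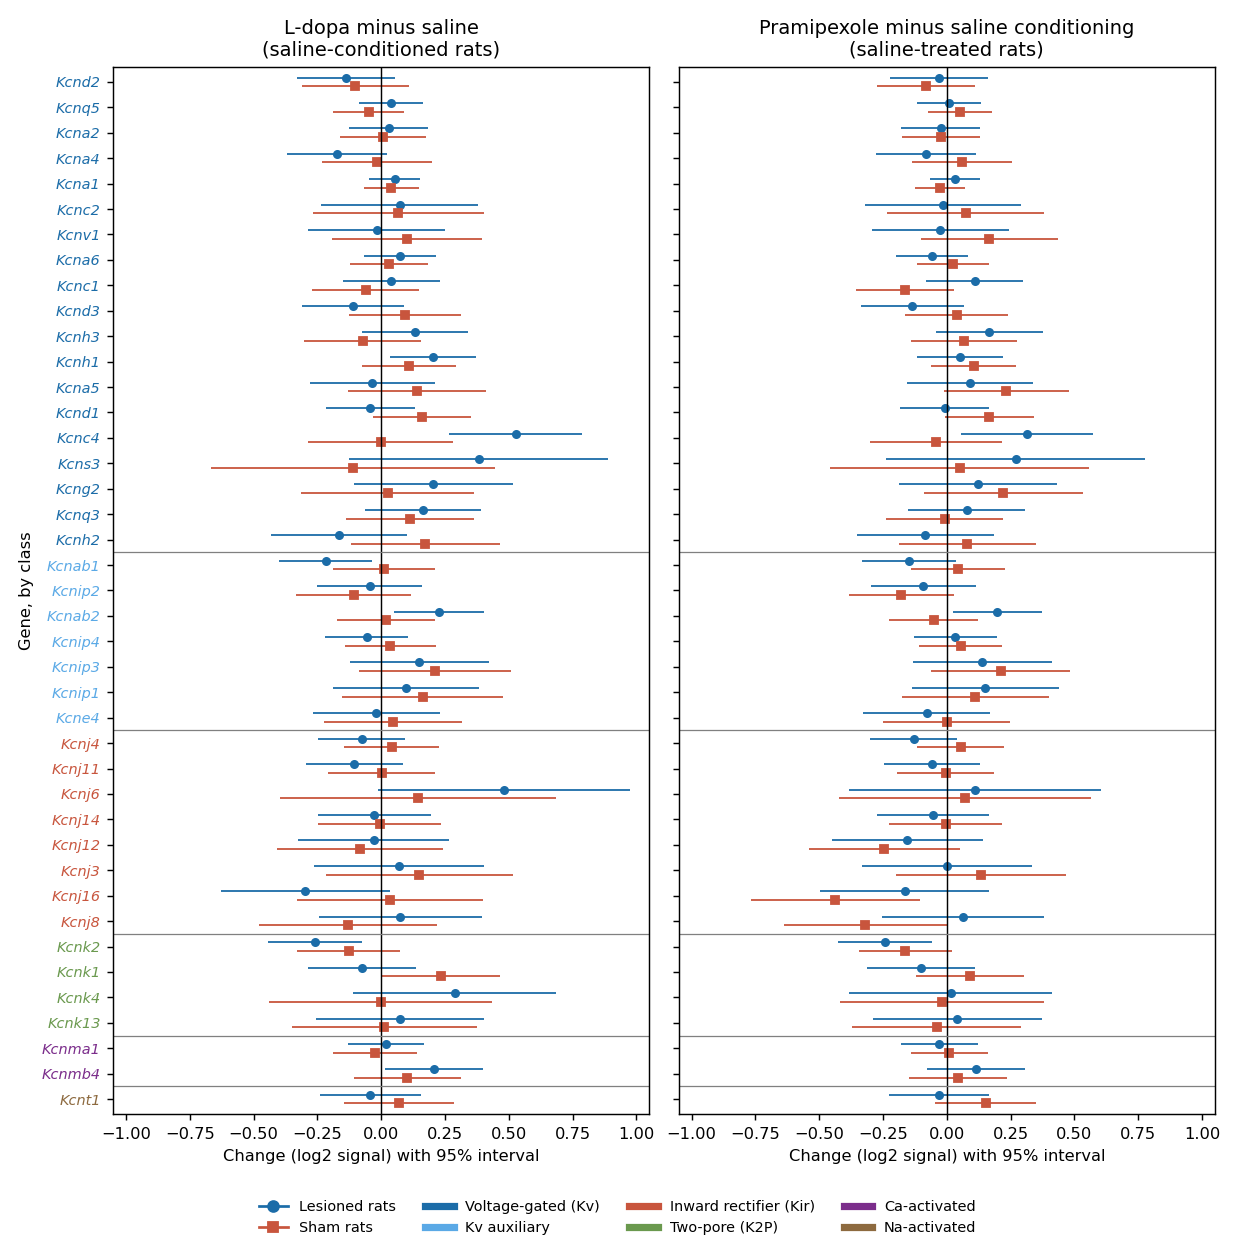
Difference in log2 signal with L-dopa in saline-conditioned rats (left) and with pramipexole in saline-treated rats (right) for 41 potassium channel genes, with 95% intervals from limma, in lesioned rats (circles, 7 against 7) and sham rats (squares; 5 against 7 for L-dopa, 7 against 7 for pramipexole). Most intervals cross 0; Kcnc4 with L-dopa in lesioned rats (0.53) is the furthest to the right.

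Tests of whether the 2 drugs combine, or act differently after the lesion, called no member. For the interaction of L-dopa and pramipexole in lesioned rats, 0 of 41 members were called by limma (0% of all) and 2 had an unadjusted p under 0.05 (7.01% of all): Kcnc4 (-0.65 ± 0.18, adjusted p = 0.554) and Kcnab2 (-0.29 ± 0.12, adjusted p = 0.705). Kcnk2 (0.25 ± 0.13) and Kcnj4 (0.21 ± 0.12) had the smallest p-values among positive values. Kcnc4 had means of 5.88 with neither drug, 6.41 with L-dopa alone, 6.20 with pramipexole alone and 6.07 with both. Of the cortex markers, 1 of 10 had a positive interaction, with a median of -0.54 and none called, and with the cortex mean as a covariate the interaction was -0.45 ± 0.14 for Kcnc4 and -0.18 ± 0.11 for Kcnab2. For the pramipexole difference between lesioned and sham rats, 0 were called (0% of all) and 2 had an unadjusted p under 0.05 (6.71% of all), Kcnc1 (0.27 ± 0.13) and Kcnab2 (0.25 ± 0.12), and Kcnj4 (-0.18 ± 0.12) and Kcnab1 (-0.19 ± 0.13) had the smallest p-values among negative values. For the L-dopa difference, 0 were called (0% of all) and 1 had an unadjusted p under 0.05 (6.08% of all), Kcnc4 (0.53 ± 0.19, limma adjusted p = 0.640), and the other values of the naming rule were Kcnk1 (-0.31 ± 0.16), Kcnh2 (-0.34 ± 0.20) and Kcnab2 (0.21 ± 0.13).

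The sign of the pramipexole difference was compared between lesioned rats over both treatments and saline-treated sham rats, which share no animal. It was the same for 22 of 41 members (53.7%, against 49.1% of all probe sets). For L-dopa, lesioned rats over both conditionings and saline-conditioned sham rats had the same sign for 21 (51.2%, against 56.4%). With saline-treated lesioned rats alone, the pramipexole sign was the same for 21 (51.2%, against 50.5%). With saline-conditioned lesioned rats alone, the L-dopa sign was the same for 20 (48.8%, against 56.9%). By class, the median pramipexole difference in lesioned rats was -0.02 for Kv genes, 0.04 for Kv auxiliary genes, -0.04 for Kir genes and -0.10 for K2P genes. The median L-dopa difference was 0.01, 0.03, 0.05 and 0.02 in the same order. The lowest and highest ends of the 95% intervals of the pramipexole differences over both treatments in lesioned rats were -0.53 and 0.38.

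The lesion comparison over all rats held the one call at an adjusted p under 0.05 in these comparisons. Over all 28 lesioned and 28 sham rats without the array set, Kcnj14, a constitutively active inward rectifier, was lower after the lesion, at 6.57 against 6.77. Single lesioned rats ran from 6.10 to 6.98 and single sham rats from 6.36 to 7.09, with broad overlap, and 23 of 28 lesioned rats lay below the mean of their matched sham group. The difference was -0.20 ± 0.05 (SE), with a limma adjusted p of 0.0206. This was 1 of 41 members called, where 5.07% of all probe sets were called; 13 members had an unadjusted p under 0.05, 2 higher and 11 lower, against 19.7% of all. No member's groups were without overlap (0% of all probe sets). The call held when any 1 rat was left out, with values from -0.22 to -0.18.

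Lesion and array set nearly coincide, since all lesioned rats and only 9 sham rats are in the first set. With the set as a block, Kcnj14 differed by -0.20 ± 0.13 with a limma adjusted p of 0.998, and 0 of 41 members and 0 of all probe sets were called. The block rests on 1 group, saline-conditioned sham rats given L-dopa, with 2 rats in the first set and 5 in the second. The Kcnj14 difference was nearly the same in both fits, and its SE rose from 0.05 to 0.13, so this fit cannot separate lesion from set. The 3′ to 5′ gap had group means of 0.80 to 0.89 in lesioned and 0.84 to 1.01 in sham rats, and with it as a covariate Kcnj14 differed by -0.18 ± 0.06 (limma adjusted p = 0.0884). In rats given both drugs, the only lesion comparison of 7 against 7 inside 1 set, Kcnj14 differed by -0.01 ± 0.11. Kcnc4 was the next member over all rats, at -0.20 ± 0.06 with a limma adjusted p of 0.0587; it passed when any of 9 rats (1, 6, 15, 22, 26, 35, 36, 42 or 52) was left out, at -0.20 to -0.21. Kcnd2 differed by 0.13 ± 0.05 (limma adjusted p of 0.0970), Kcng2, a modulatory Kv subunit, by -0.19 ± 0.08 and Kcnma1 by 0.08 ± 0.04. With the mean of a gene's probe sets Kcnj11 passed as well, at -0.15 ± 0.04.

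In rats given both drugs, the lesion gave 0 called members (0% of all) and 2 at an unadjusted limma p under 0.05 (6.81% of all), and no member's groups were without overlap (0.124% of all). Kcnj11, the KATP pore of neurons, had 6.77, 6.96 and 7.198 (lowest, median, highest) in lesioned and 7.02, 7.27 and 7.43 in sham rats. All 7 lesioned rats lay below the sham mean, with overlap; the difference was -0.25 ± 0.09 (limma adjusted p = 0.670), and the second Kcnj11 probe set gave -0.32 ± 0.12. Kcnk13, a leak channel of microglia, had 4.55, 5.18 and 5.96 in lesioned and 3.95, 4.89 and 5.37 in sham rats, a difference of 0.36 ± 0.16 (limma adjusted p = 0.708). The highest value was that of rat 2, whose microglia marker mean was 9.77, against 6.88 to 7.57 in the other 55 rats. Without rat 2 the Kcnk13 difference was 0.24, and without rat 30, the lowest sham rat, 0.22. All 10 microglia markers were higher in the lesioned rats of this comparison, 6 of them at an unadjusted p under 0.05. Rat 2 carried this: the mean of the list was 7.52 in the 7 lesioned rats, 7.15 in the 6 without rat 2 and 7.12 in the 7 sham rats. Kcnd3 differed by -0.18 ± 0.10 and Kcnj4 by 0.15 ± 0.08.

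Partner genes of potassium channels were taken from a list of 26, of which 16 were tested. Over all rats 1 of the 16 fell with the lesion (5.07% of all probe sets were called), the pacemaker channel gene Hcn2 (-0.34 ± 0.07, limma adjusted p = 0.00228), and none rose; the array set was not in that fit, and no probe set was called with it. No partner was called with L-dopa in lesioned rats, where Abcc8, the partner of Kcnj11, differed by 0.20 ± 0.07, Hcn2 by 0.21 ± 0.10 and the scaffold gene Dlg4 by 0.13 ± 0.06; these 3 of 16 were the partners at an unadjusted p under 0.05, against 10.3% of all probe sets. With pramipexole in lesioned rats 1 of 16 had an unadjusted p under 0.05 (6.38% of all), the scaffold gene Dlg2 (-0.22 ± 0.08), and none was called.

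Across single rats inside the groups, 25 of the 41 potassium channel genes followed or opposed the cortex markers, and 16 did neither past the threshold. After group and array set means were removed, Kcnj6 followed the mean of the 10 cerebral cortex markers across 56 rats, and Kcna4 and Kcna5 went against it. Relations with the cortex list, with 13 medium spiny neuron markers and with the 3′ to 5′ gap were chosen after the values were seen, and the 41 members gave 123 of them, adjusted together. With the cortex list, 16 members rose and 9 fell at an adjusted permutation p under 0.05; with the medium spiny neuron list, 9 rose and 15 fell. All 25 and all 24 kept their sign in both array sets and without the 2 rats furthest from the median. With the 3′ to 5′ gap 3 members passed, Kcnj8 upward (r = 0.311) and Kcnj4 (r = -0.386) and Kcnv1 (r = -0.405) downward. The share of all probe sets passing this permutation threshold was not computed, so these counts have no baseline. At r over 0.5 with the cortex list stood 14 of 41 members, against 6% of all probe sets. At r under -0.5 stood 6, against 3.63%. The lists are not independent of each other, with r = -0.811 (rho = -0.796) between them.

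Members that rose with the cortex list came from every class except the sodium-activated one. Kcnj6 had r = 0.926 (rho = 0.889; permutation p = 1.0e-05, the smallest that 100000 permutations can give; adjusted 3.8e-05). Within rats 1 to 37 its r was 0.939, within rats 38 to 56 it was 0.889, and without the 2 furthest rats 0.906. Its signal ran from 5.71 in rat 23, with a cortex mean of 7.67, to 7.67 in rat 22, with 9.21; both rats belong to the lesioned saline group. Kcnmb4 had r = 0.875 (rho = 0.857; within sets 0.906 and 0.784; 0.840 without 2 rats), and the Kv genes Kcns3 r = 0.788 (rho = 0.705; 0.798 and 0.763; 0.745) and Kcnc2 r = 0.781 (rho = 0.663; 0.852 and 0.542; 0.777). All 3 Kcnc members were in this set, with Kcnc4 at 0.697 and Kcnc1 at 0.646, as was Kcnj3, the partner of Kcnj6 in G protein-gated channels, at 0.661.

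Members that fell with the cortex list rose with the medium spiny neuron list, apart from Kcnj14. Kcna4 had r = -0.654 (rho = -0.621) with the cortex list and r = 0.779 (rho = 0.715) with the spiny neuron list, and the latter was 0.869 within rats 1 to 37, 0.567 within rats 38 to 56 and 0.719 without 2 rats. Kcna5 had r = 0.770 (rho = 0.674; within sets 0.812 and 0.617; 0.679 without 2 rats) with the spiny neuron list, Kcnab1 0.751 (rho = 0.787; 0.765 and 0.703; 0.718) and Kcnk2 0.696 (rho = 0.709; 0.662 and 0.797; 0.716). Each had an adjusted permutation p of 3.8e-05. Kcnd1, Kcnd2 and Kcnip2, genes of A-type channels and their partner, also rose with the spiny neuron list (0.635, 0.544 and 0.595), and Kcnj14 did not pass there (0.201). Of the 3 Kcna genes that lie side by side in the genome, Kcna5, Kcna1 and Kcna6, the relation with the cortex list was -0.656, -0.057 and 0.155, and the last pair did not pass.

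**Figure D4:**
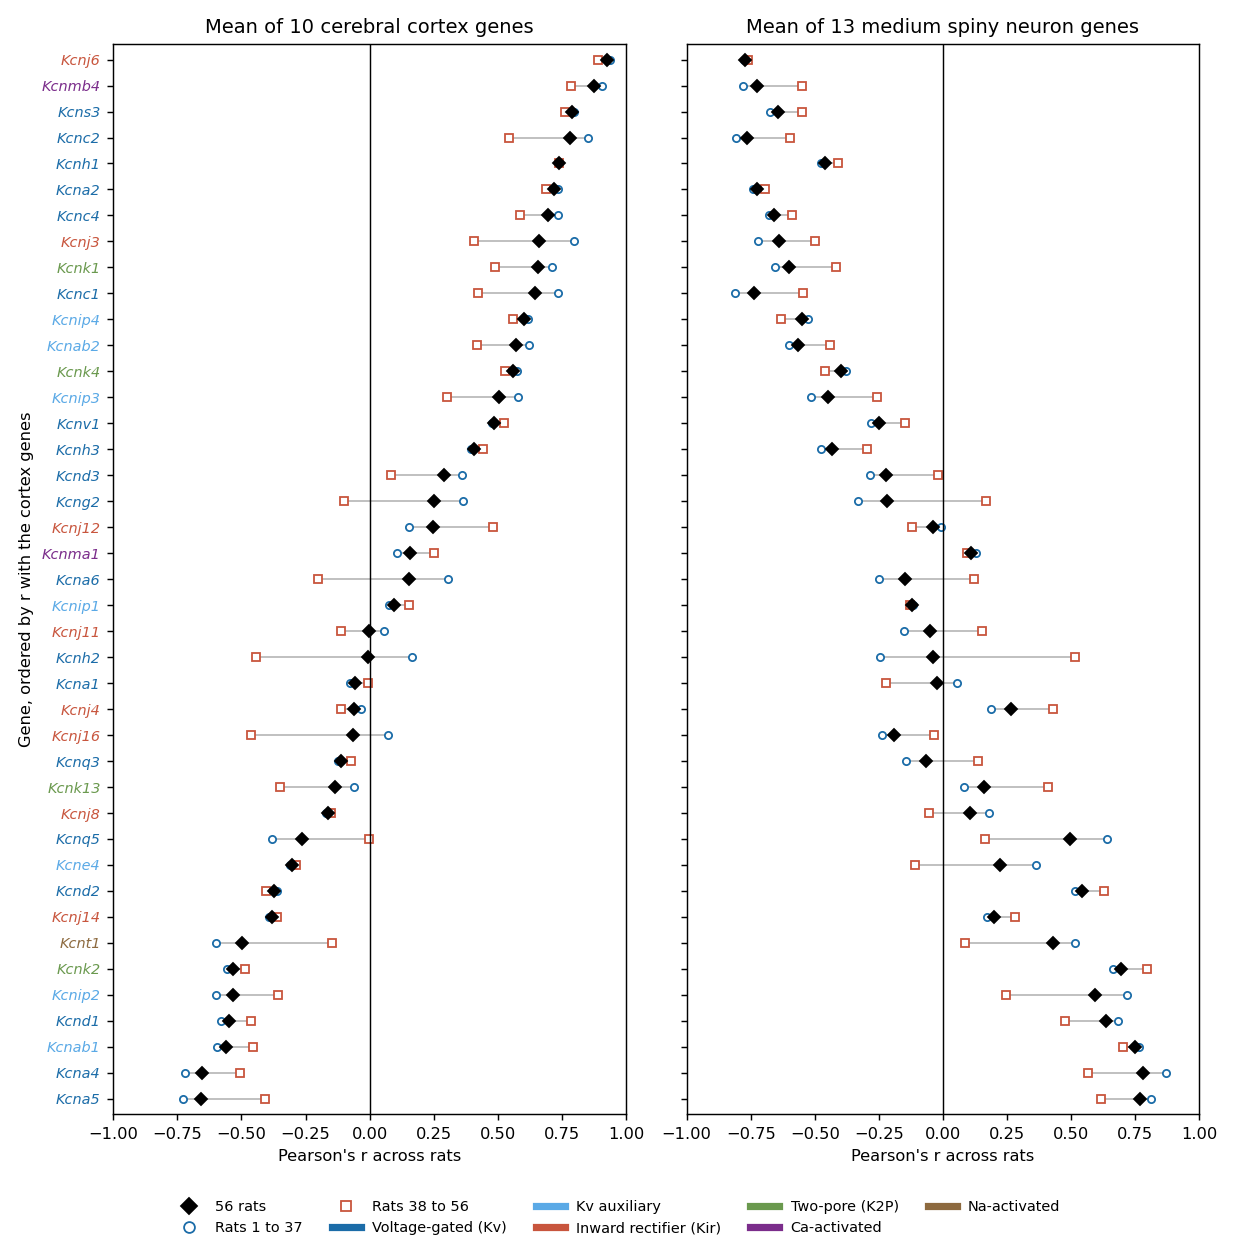
Pearson's r across rats between each of 41 potassium channel genes (rows, coloured by class) and the mean of the cerebral cortex markers (left) or of the medium spiny neuron markers (right), after group and array set means were removed; diamonds are 56 rats, circles rats 1 to 37, squares rats 38 to 56. The order from Kcnj6 (0.926) down to Kcna5 (-0.656) on the left is nearly turned round on the right.

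With the cortex list, 14 of 41 members had r over 0.5, against 6% of all probe sets, and 6 had r under -0.5, against 3.63%. With the spiny neuron list these were 7, against 4.06%, and 11, against 4.88%. Among the 820 pairs of members, 72 had r over 0.5 and 46 under -0.5; the extremes were Kcnmb4 with Kcnj6 (0.821) and Kcna4 with Kcnc1 (-0.812). The members share each array's scaling and dissection, and these counts are given as a description.

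**Figure D5:**
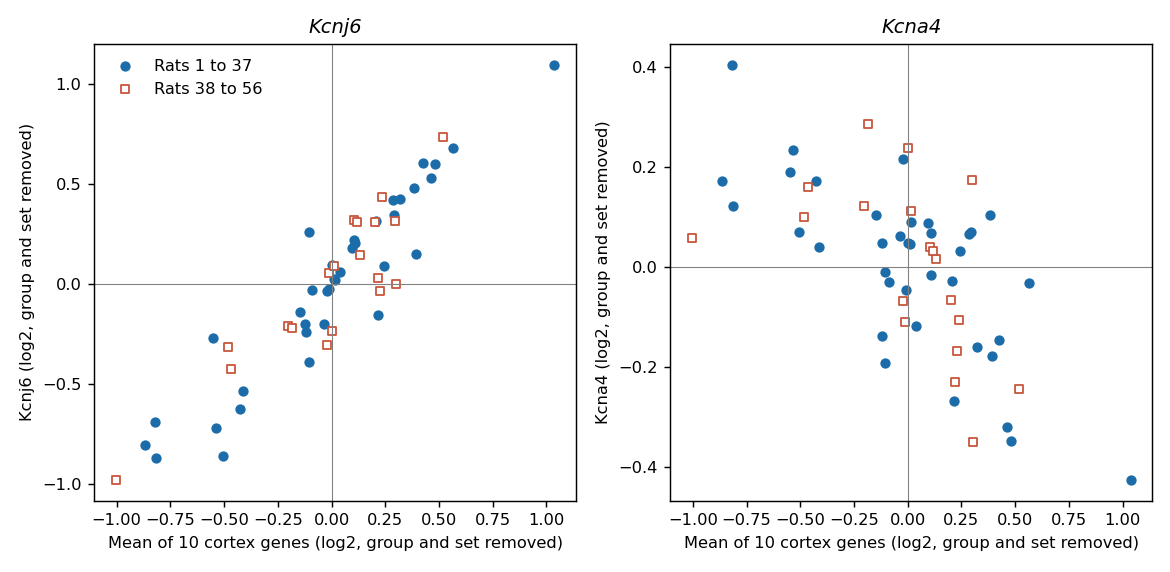
Log2 signal of Kcnj6 (left) and Kcna4 (right) against the mean of 10 cerebral cortex markers in 56 rats, both with group and array set means removed; filled circles are rats 1 to 37 and open squares rats 38 to 56. Kcnj6 climbs with the cortex markers (r = 0.926) and Kcna4 declines (r = -0.654) in both sets.

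A second probe set gave the same direction for most of these genes. For Kcnc2 the r with the cortex list was 0.624 and 0.453 in 2 further probe sets, for Kcnip4 0.413, for Kcnab1 -0.560, for Kcnip2 -0.5002 and for Kcnd2 -0.652. For Kcnj6 it was 0.183, and that probe set had r = 0.108 with the bright one, so the Kcnj6 relation rests on 1 probe set. The dimmest Kcnt1 probe set turned the sign, from -0.499 to 0.2504. Kcnab2 had 0.465 and 0.490 in its further probe sets.

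Further relations, with other cell types, were weaker. Kcnj16 rose with the astrocyte markers (r = 0.359, rho = 0.313, permutation p = 0.00654, adjusted over 3 relations 0.0196), and its r was 0.373 without the 2 furthest rats, 0.310 in rats 1 to 37 and 0.499 in rats 38 to 56. Kcnj8 rose with the endothelial and mural markers (r = 0.294, rho = 0.336, permutation p = 0.0284, adjusted 0.0426), with 0.283, 0.396 and 0.118 in the same order. Kcnj4 had the weakest relation, with the spiny neuron markers (r = 0.266, rho = 0.237, permutation p = 0.0484, adjusted 0.0484), with 0.276, 0.189 and 0.431. By rho its adjusted permutation p was 0.0788. Among the 123 relations, where it was also tested, its adjusted permutation p was 0.101 and it did not pass. Kcnj8 and Kcnj4 also went with the 3′ to 5′ gap, at r = 0.311 and r = -0.386, both larger in size than their r with these markers.

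Promoters are shown for 4 of the genes that moved together, 2 that rose with the cortex markers and 2 that fell. Each is the 250 bases before the RefSeq start site, 5′ to 3′ on the gene's strand; capitals mark the GC box GGGCGG on either strand (CCGCCC).
Kcnj6 (GRCr8 chr11:47778349-47778598, reverse strand): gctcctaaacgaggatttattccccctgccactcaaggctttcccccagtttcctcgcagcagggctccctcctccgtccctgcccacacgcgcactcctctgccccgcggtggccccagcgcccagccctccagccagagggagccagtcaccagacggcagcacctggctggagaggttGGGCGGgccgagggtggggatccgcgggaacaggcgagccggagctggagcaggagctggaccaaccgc
Kcnmb4 (GRCr8 chr7:54005102-54005351, reverse strand): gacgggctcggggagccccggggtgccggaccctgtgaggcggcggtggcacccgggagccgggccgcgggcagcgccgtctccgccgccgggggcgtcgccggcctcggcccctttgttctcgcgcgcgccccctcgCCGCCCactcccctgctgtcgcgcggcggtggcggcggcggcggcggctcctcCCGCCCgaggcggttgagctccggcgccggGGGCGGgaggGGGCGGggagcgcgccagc
Kcna4 (GRCr8 chr3:114215086-114215335, forward strand): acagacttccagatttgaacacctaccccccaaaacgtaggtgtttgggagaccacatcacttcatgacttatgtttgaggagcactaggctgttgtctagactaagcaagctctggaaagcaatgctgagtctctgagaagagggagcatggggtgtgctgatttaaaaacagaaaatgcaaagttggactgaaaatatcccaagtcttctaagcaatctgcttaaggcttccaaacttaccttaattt
Kcnab1 (GRCr8 chr2:151614301-151614550, forward strand): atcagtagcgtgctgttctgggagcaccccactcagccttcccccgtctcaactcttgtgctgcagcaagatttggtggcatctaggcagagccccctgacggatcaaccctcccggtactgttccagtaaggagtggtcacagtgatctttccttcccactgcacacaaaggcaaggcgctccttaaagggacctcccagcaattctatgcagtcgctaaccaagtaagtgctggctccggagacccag
Promoters of 30 of the 41 members were matched. A GC box was in 16 of the 30 (53.3%), against 30.5% of 33469 promoters of this length, and the median GC content was 64.4%, against 51.2%. The members were taken at 1 promoter per gene. The 33469 had no such limit and were not restricted to genes above the level of 5, so the shares here come from unlike sets. Of the 16 members that rose with the cortex list, 11 had a promoter and 9 of these a GC box; of the 9 that fell, 8 had a promoter and 2 a GC box. Kcnmb4 carried 4 GC boxes, Kcnj6 1, and Kcna4 and Kcnab1 none. The TATA box TATAAA, searched on both strands, was in 0 of the 30 (12.9% of all promoters), and the half-site TGACG of the cyclic AMP response element, also on both strands, in 5 (16.7%, against 18.2%). A match is only these letters in this window, and how the split relates to the GC content of the promoters was not tested.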

How the data were processed

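Dorsal striatum RNA (100 ng) of 56 rats was labelled with a 3′ kit and hybridized to Affymetrix Rat230_2 arrays, per the labels' protocols. The deposited values are log2 signals, made with MAS5 per the submitters' processing notes; its version and scaling are not given in the sources used here. No detection calls were used. Groups came from the sample titles; 0 other sample columns were present.

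The potassium channel genes, gene lists and tests were chosen with earlier results of these data known. Of 31099 probe sets, 57 controls were removed and 18578 with a mean above 5 were tested, 13583 of them with 1 gene symbol. limma 3.58.1 in R 4.3.3 (lmFit, eBayes, two-sided) was fitted to 8 group means with the array set as a block, or without it for the comparison of all lesioned and sham rats. Benjamini-Hochberg adjustment ran over all tested probe sets. The fit was run on simulated data with independent noise for each probe set. Variation shared by many genes across rats, which these data hold, was not simulated. Rats are separate samples by their titles, and p-values measure the spread between them. The precision rests on the number of arrays.

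All members are given by class. For each comparison the named members are those called or, with fewer than 4 called, the 2 higher and 2 lower of smallest p; members at an unadjusted p under 0.05 and those in the cortex relations were named after their values were seen. Relations across rats were tested with 100000 permutations, two-sided. All 41 gene numbers matched RefSeq; positions are given only for promoters (GRCr8, RefSeq). Alternatives were no filter, a 60th percentile filter, quantile normalization, an intensity trend, array weights, fewer groups, no array set, an RNA quality covariate, 16 added to the signal, the mean of a gene's probe sets and leaving out each rat.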

Additional observations from a re-analysis of the deposited data

Results flagged for a closer look

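In 328 sets of 7 values (41 potassium channel genes in 8 groups), 27 held a rat whose log2 signal stood apart from the other 6 by Dixon's criterion, which chance alone meets in about 1 of 20 sets. Among lesioned rats given both drugs, low values stood apart for Kcnc2 in rat 3 (8.30, next 8.76) and Kcns3 in rat 3 (4.97, next 5.88), and high values stood apart for Kcna5 in rat 3 (7.45, next 7.08) and Kcng2 in rat 1 (6.25, next 5.73). Among lesioned L-dopa rats, low values stood apart for Kcnh2 in rat 12 (4.59, next 5.12), and high values stood apart for Kcnj16 in rat 11 (5.73, next 5.32) and Kcnab2 in rat 8 (9.29, next 8.95). Among lesioned pramipexole rats, low values stood apart for Kcnk4 in rat 21 (3.95, next 5.17), and high values stood apart for Kcnk13 in rat 20 (5.47, next 5.13) and Kcnj4 in rat 20 (8.01, next 7.78). Among lesioned saline rats, high values stood apart for Kcna2 in rat 22 (10.31, next 9.96) and Kcnip1 in rat 23 (6.96, next 6.45). Among sham rats given both drugs, low values stood apart for Kcnk13 in rat 30 (3.95, next 4.85), Kcnj12 in rat 31 (4.82, next 5.52), Kcnj3 in rat 29 (4.90, next 5.52), Kcna4 in rat 29 (9.33, next 9.49), Kcnh2 in rat 35 (4.36, next 5.18) and Kcnab1 in rat 29 (11.14, next 11.46). Among sham L-dopa rats, low values stood apart for Kcnk13 in rat 40 (4.59, next 5.25), and high values stood apart for Kcnj11 in rat 39 (7.64, next 7.10). Among sham pramipexole rats, low values stood apart for Kcnh2 in rat 45 (4.69, next 5.40) and Kcnt1 in rat 48 (7.68, next 7.97), and high values stood apart for Kcna2 in rat 43 (10.10, next 9.85). Among sham saline rats, low values stood apart for Kcnk4 in rat 55 (4.64, next 5.39), Kcnd2 in rat 51 (9.92, next 10.28) and Kcnc2 in rat 55 (8.58, next 9.03), and high values stood apart for Kcnh2 in rat 56 (5.74, next 5.39). Rats 3 and 29 account for 3 values each. Rat 3, with low Kcnc2 and Kcns3 and high Kcna5, had a cortex marker mean of 7.56, the lowest of its group. In rat 29 the low genes go opposite ways with the cortex list, Kcnj3 at r = 0.661 and Kcna4 and Kcnab1 at -0.654 and -0.562. The part of cortex tissue in these values was not tested.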

How the results depend on the processing

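No paired analysis was possible because the rat numbers of the titles run from 1 to 56 and are shared by no 2 groups. With settings that leave out no rat, 116 counts of called genes stayed within 1.5 times the reported count and 4 did not. The 4 belong to the lesion over all rats (1 called): 0 with the array set as a block, 0 with the RNA quality covariate, 2 with the mean of a gene's probe sets (Kcnj11 added) and 3 with the cortex covariate, chosen after seeing the data (Kcnc4 and Kcnc2 added). Over all probe sets the same 4 settings called 0, 459, 686 and 1173, against 941. Leaving out 1 rat gave between 1 and 2 there, and the gene added was Kcnc4. For L-dopa in saline-conditioned lesioned rats, leaving out 1 rat gave between 0 and 1, the call being Kcnc4 without rat 22, where the calls over all probe sets went from 3 to 57. Kcnc4 over all rats passed with the cortex covariate (-0.19, limma adjusted p = 0.00946). Of the 3 relations with other cell types, Kcnj16 with astrocytes was 0.310 within rats 1 to 37, Kcnj8 with mural cells 0.118 within rats 38 to 56, and Kcnj4 with spiny neurons 0.189 and 0.431 within the sets; none passed there. No named difference changed sign. Using the compared groups alone could not be run for the lesion over all rats, since it uses every group.

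Kcnk13 and Kcnj8 lie near the level of 5. Array signals give no read depth. The median SE of a difference between groups of 7 was 0.10.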
